A study of Sus scrofa with 15 samples.

Results

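Granulosa cells of the pig ovary were compared after the first day of culture with the same cell type before culture, by the arrays of day 1 and day 0 of a culture time course. Total RNA of porcine follicular granulosa cells, the cells that surround the oocyte inside an ovarian follicle, was measured on days 0, 1, 2, 4 and 7 of culture with 3 Affymetrix porcine genome arrays on each day. All 3 arrays of day 0 and all 3 arrays of day 1 were taken, 6 of the 15 arrays of the series. No treatment, breed, age or culture medium is given in the labels for either day, and both carry the same description of their source, so the named difference between them is the day in culture. The labels describe the time course as dedifferentiation and give the cells of day 7 the name DFOG. They call the arrays of a day biological replicates but name no animal, pool or dish for any of them. Each p value therefore rests on how far the 3 arrays of a day lie from each other, and part of that spread may be technical. This spread was pooled over all days of the 15 arrays. A gene that spread widely on day 2, 4 or 7 can thus have a large standard error although its day 0 and day 1 arrays lie close together.

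Plating takes granulosa cells from a follicle, where they hang together in layers around fluid and are fed by gonadotropins and growth factors, to a flat surface and a rich medium. Inside the follicle they make estrogen, and after ovulation they turn into luteal cells that make progesterone. Cells that are plated commonly attach, spread and re-enter growth, and growth draws on ribosomes, amino acids, polyamines and nucleotides, whose genes are read here beside those of energy metabolism, transport, signaling and receptors.

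Values are log2 levels, so that a difference of 1 is a 2-fold difference in signal, and the 3 values of a day are given in the order of replicates 1, 2 and 3. A probe set was called higher or lower when its Benjamini-Hochberg adjusted p in limma was under 0.05 over all 23999 probe sets tested and its log2 change was at least 1. A rise or fall below means such a call. Each change is given as the value ± its standard error from the fit, with 3 arrays on each day, and folds are ratios of the day means turned back from log2. Of the probe sets tested, 3001 were called (12.5%), 1553 higher (6.47%) and 1448 lower (6.03%). Counted once per gene, 1069 of 6765 named genes were called (15.8%), 601 higher (8.88%) and 468 lower (6.92%), and the median change of all genes was 0.04. These shares are the background against which the counts of each gene list are to be read. The 3 values of day 1 did not overlap those of day 0 in 37% of probe sets and 46.2% of genes, so lack of overlap alone is common here. Signal from the lowest 25% of probe sets lay below 4.48 to 4.68 on the 6 arrays. A change from or to such a level is a lower bound. Of 54 counts of 2 or fewer calls in a list, 21 moved when a single array was left out, so that such small counts are not firm.

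The arrays differed along the same line as the replicate numbers. Replicate 1 of each day correlated with its fellow replicates at 0.974 to 0.975, while replicates 2 and 3 correlated at 0.992 on day 0 and 0.994 on day 1. Without replicate 1 of any day, 1522 probe sets were called higher and 1854 lower. The difference between the 3′ and 5′ probe sets of actin, a measure of RNA integrity, lay between 0.97 and 1.68 on the day 0 arrays and between 0.18 and 1.01 on those of day 1. The ranges of actin overlapped slightly, with lower values on day 1. For GAPDH the same difference ran from 0.50 to 1.16 on day 0 and from 0.22 to 1.02 on day 1. For EF1A it ran from -0.25 to 0.19 on day 0 and from -0.07 to 0.10 on day 1, so that both overlapped widely. In each of these controls replicate 1 was the lowest array of its day. The part of RNA integrity in the changes below was not tested.

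Of 16 markers of granulosa cells, 10 fell and 1 rose on day 1, with a median change of -1.26. LHCGR, the receptor for luteinizing hormone, measured 12.49, 12.46 and 11.24 on day 0 and 9.16, 9.32 and 8.71 on day 1. The groups stood apart, and LHCGR fell by 2.999 ± 0.34 (7.99-fold, adjusted p = 2.13e-05). AMH, a hormone of granulosa cells of growing follicles, fell by 2.18 ± 0.27, and INHBB, a subunit of activin and inhibin, fell by 2.24 ± 0.45. The rise was that of GATA4, a transcription factor of the gonad, at 1.16 ± 0.31, with adjusted p values of 0.0503 without day 0 replicate 3 and 0.0544 without day 1 replicate 1 in limma. Under cyclic loess its change was 0.96, below the minimum. FOXL2, a defining transcription factor of granulosa cells, stood at 6.05, 5.78 and 5.85 on day 0 and 5.85, 5.85 and 5.83 on day 1. CYP19A1, the aromatase that makes estrogen, stood at 4.98 to 5.61 on day 0, only slightly above the lowest 25%, and at 5.14 to 5.39 on day 1. Of the other cell types, none of 10 macrophage markers and none of 10 markers of lymphocytes and granulocytes was called by limma (0 and 1 at an unadjusted p under 0.05), with mean levels of 4.46 to 4.65 and 4.40 to 4.79 on day 0 and 4.52 to 4.88 and 4.34 to 4.51 on day 1. Endothelial markers had a mean level of 5.27 to 5.53 on day 0 and 5.53 to 5.72 on day 1, with 2 of 11 higher, PECAM1 (1.64 ± 0.21) and ERG (1.28 ± 0.36), of which ERG lost its call when day 0 replicate 1, day 1 replicate 1 or replicate 3 of day 1 was left out (0.93, 1.16 and 1.18). Of 9 theca and stroma markers 2 were higher and 1, INSL3, was lower (-1.42 ± 0.23), and 1 of 6 oocyte markers, GDF9, was lower (-1.23 ± 0.15). None of 3 red blood cell markers was called by limma, and none had an unadjusted p under 0.05. In bulk RNA fewer cells of a type and less RNA per cell cannot be told apart, and the part of other cell types in the changes below was not tested.

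**Figure D1:**
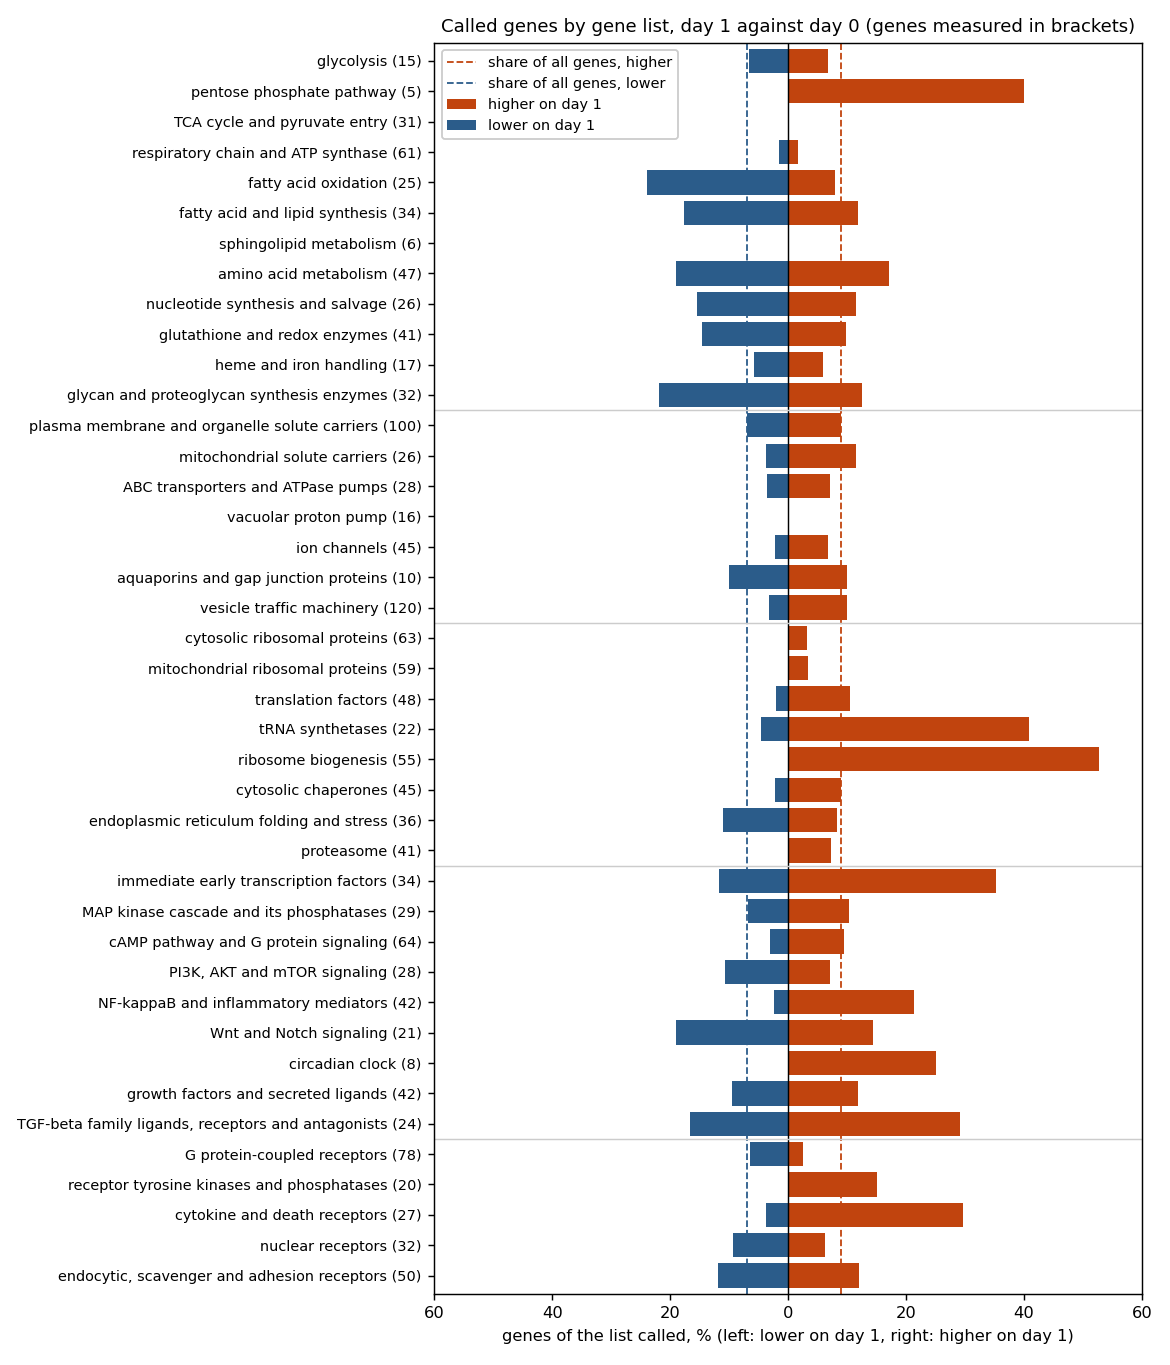
Share of the measured genes of each of 41 lists that was called lower (bars to the left) or higher (bars to the right) on day 1 against day 0, in percent. Dashed lines mark the shares over all named genes, 6.92% lower and 8.88% higher, and grey lines part metabolism, transport, protein synthesis, signaling and receptors; ribosome biogenesis reaches furthest, 52.7% higher. The TGF-beta list leaves out 5 family members held among granulosa markers.

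Genes for the making of ribosomes had the largest share of rises among the 41 lists plotted, while genes for the proteins of the ribosome held few calls. Of 55 genes of ribosome biogenesis, 29 rose (52.7%) and none fell in limma, nor was any lower at an unadjusted p under 0.05. The median change was 1.04, and 54 of the 55 changes were above 0. The count of rises was 22 under a second quantile normalization and 22 under cyclic loess, 24 to 30 when single arrays were left out, and 29 with replicates 2 and 3 only. Of 63 cytosolic ribosomal proteins only 2 were called, and the 59 that are standard parts of the ribosome held no call in limma, with changes from -0.20 to 0.70 and 14 higher at an unadjusted p under 0.05. The list of cytosolic ribosomal proteins had a median change of 0.17, which was -0.11 under cyclic loess. Its median level on day 0 was 13.29, against 8.06 for ribosome biogenesis, and the highest value of the deposited data was 14.95. Whether levels this high limit the size of a change was not tested, nor was the difference between these lists.

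MYC, a transcription factor that drives ribosome production and growth, is counted among the 55 genes of ribosome biogenesis and had their largest change. It measured 5.97, 6.39 and 6.66 on day 0 and 10.06, 9.63 and 9.91 on day 1. Every day 1 array lay far above every day 0 array, a rise of 3.53 ± 0.18 (11.5-fold, adjusted p = 3.18e-08). Its mean was still 9.45 on day 7. GNL3, a nucleolar GTPase also called nucleostemin, measured 7.51, 7.87 and 7.79 on day 0 and 10.17, 10.49 and 10.46 on day 1. The replicates of each day lay close together and the rise was 2.65 ± 0.25 (adjusted p = 4.83e-06). RPF2, which helps assemble the large subunit, rose by 2.23 ± 0.23, and UTP4, a part of the small subunit processome, rose by 1.63 ± 0.23 (adjusted p = 1.32e-05 and 0.000118). RPL7L1, a ribosomal protein-like factor of the nucleolus, stood out from the ribosomal proteins with 10.27, 10.35 and 10.30 on day 0 and 11.86, 12.002 and 11.83 on day 1, a rise of 1.59 ± 0.17 (adjusted p = 1.71e-05). RPS27L, a p53-inducible relative of RPS27, changed by 1.05 ± 0.20 (adjusted p = 0.00134), but by only 0.97 without day 0 replicate 1 and 0.87 without day 1 replicate 1, under the minimum. It also missed the minimum with a second quantile normalization (0.93) and with cyclic loess (0.79). RPLP0, a stalk protein of the ribosome, was 13.50, 13.88 and 13.74 on day 0 and 13.88, 13.97 and 13.84 on day 1, with overlap.

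Of 22 tRNA synthetases, which load amino acids onto tRNA, and their scaffold proteins, 9 were higher (40.9%) and 1 was lower (4.55%). All 9 rises lay among the 16 cytosolic ones, with a median change of 1.16. The 6 mitochondrial ones held none, and none at an unadjusted p under 0.05 either, with a median of -0.39. VARS, the valyl-tRNA synthetase, measured 8.03, 8.03 and 8.19 on day 0 and 9.91, 10.17 and 10.49 on day 1, a rise of 2.11 ± 0.16 (4.3-fold, adjusted p = 8.16e-07). VARS2, its mitochondrial counterpart, measured 7.66, 7.50 and 7.63 on day 0 and 6.40, 6.37 and 6.37 on day 1. The groups stood apart in opposite directions for the pair, and VARS2 fell by 1.22 ± 0.15 (adjusted p = 5.95e-05). SARS and AARS, the seryl- and alanyl-tRNA synthetases, rose by 1.87 ± 0.22 and 1.69 ± 0.15, and EEF1E1, which holds the multisynthetase complex together, rose by 1.53 ± 0.28. The difference between the compartments was not tested.

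Of 48 translation factors 5 were called higher (10.4%) and 1 lower (2.08%), against 8.88% and 6.92% of all genes. Their median change was 0.42, against 0.04 for all genes, and 22 were higher and 6 lower at an unadjusted p under 0.05 in limma. EEF1E1, given above, is counted in this list too and had its largest change. EIF4A1, the RNA helicase that opens messenger RNA for scanning, measured 10.84, 10.60 and 10.32 on day 0 and 12.18, 11.86 and 11.96 on day 1, with no overlap and a rise of 1.41 ± 0.15 (adjusted p = 1.54e-05). EIF3B, a core subunit of the factor that bridges messenger RNA and the small subunit, rose by 1.38 ± 0.33 (adjusted p = 0.00668). Of 59 mitochondrial ribosomal proteins 2 rose (3.39%), among them MRPS34 (1.30 ± 0.14), and 4 did without day 0 replicate 2.

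Of 36 genes of folding and stress in the endoplasmic reticulum, 4 fell (11.1%) and 3 rose (8.33%), 29 were not called and the median change was -0.11, with 7 falls under a second quantile normalization, 8 under cyclic loess and 8 without day 0 replicate 3. HSP90B1, the chaperone GRP94 of the endoplasmic reticulum, measured 12.83, 12.34 and 12.14 on day 0 and 11.48, 10.67 and 10.92 on day 1. All of its day 1 arrays lay below those of day 0, a fall of 1.41 ± 0.20 (adjusted p = 0.000174). CRELD2, a secretory pathway protein induced when folding is strained, fell by 1.85 ± 0.19, and HYOU1, a large chaperone of the same compartment, fell by 1.29 ± 0.20. HSPA5, the main chaperone BiP, fell by 1.02 ± 0.14 (adjusted p = 9.23e-05), with changes of -0.88 without day 0 replicate 2 and just under the minimum without day 1 replicate 3. On day 7 the means of HSPA5 and HSP90B1 were 12.97 and 12.35, against 13.16 and 12.44 on day 0. The 3 rises were of transcription factors. ATF4, which turns on amino acid supply and synthetase genes, measured 10.65, 10.66 and 10.80 on day 0 and 12.81, 12.32 and 12.23 on day 1, a rise of 1.75 ± 0.19 (adjusted p = 1.69e-05). DDIT3, the factor CHOP, rose by 1.34 ± 0.26, and CREB3L2, a membrane-bound factor of the secretory pathway, rose by 1.79 ± 0.22 (adjusted p = 0.00163 and 4.7e-05).

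Cytosolic chaperones held 4 rises (8.89%) and 1 fall (2.22%) among 45 genes, against 1 rise and 2 falls under cyclic loess. BAG5, a regulator of HSP70, rose by 1.61 ± 0.18, while HSPA2, an HSP70 best known from the testis, fell by 1.59 ± 0.34. Of 41 proteasome genes 3 rose (7.32%). Of these, PSME4 and PSME3, activators that cap the core particle, rose by 1.54 ± 0.24 and 1.43 ± 0.36. Of the 33 subunits with names from PSMA to PSMD, 32 were not called. However, 15 of these 33 were higher and 0 lower at an unadjusted p under 0.05 in limma. The median change of the 41 genes was 0.39, and 36 of their changes were above 0.

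**Figure D2:**
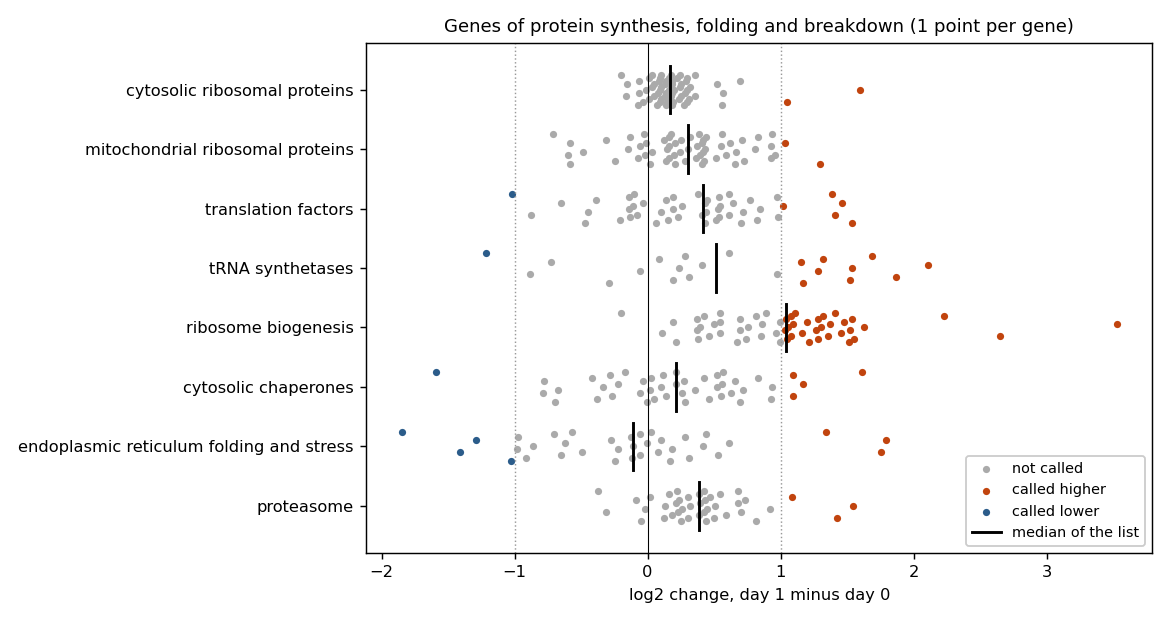
Log2 change from day 0 to day 1 (horizontal axis) of each measured gene, 1 point per gene, in 8 lists of protein synthesis, folding and breakdown. Black bars are list medians and dotted lines mark the minimum change of 1; ribosome biogenesis has its median at 1.04 and cytosolic ribosomal proteins at 0.17.

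Enzymes of amino acid metabolism were called in both directions, 8 higher (17%) and 9 lower (19.1%) of 47 genes. Rises became 5 under cyclic loess. CDO1, the enzyme that commits cysteine to taurine, measured 11.40, 11.08 and 11.16 on day 0 and 7.38, 8.05 and 7.95 on day 1. The day 1 arrays lay far below the day 0 arrays, a fall of 3.42 ± 0.27 (10.7-fold, adjusted p = 1.28e-06), and the day 7 mean was lower still at 6.61. BCKDHB, a subunit of the complex that burns branched-chain amino acids, measured 9.69, 9.48 and 9.26 on day 0 and 7.79, 7.07 and 7.01 on day 1. It fell by 2.18 ± 0.19 (adjusted p = 2.89e-06) with no overlap. FAH, the last enzyme of tyrosine breakdown, fell by 1.73 ± 0.18 (adjusted p = 1.43e-05). BCAT1, the cytosolic transaminase of branched-chain amino acids, rose from near the background, with 5.52, 4.64 and 4.84 on day 0 and 6.09, 6.24 and 6.66 on day 1, by 1.33 ± 0.26 (adjusted p = 0.00184). GAMT, which makes creatine, was among the 30 largest falls of all genes, at 2.82 ± 0.33 (adjusted p = 2.96e-05).

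Polyamines, small cations needed for growth, are made from ornithine and S-adenosylmethionine and are marked for export by acetylation. SRM, the spermidine synthase, measured 7.26, 7.32 and 7.30 on day 0 and 9.72, 9.07 and 9.58 on day 1. The day 0 values were nearly equal and the rise was 2.17 ± 0.18 (4.49-fold, adjusted p = 1.83e-06). MAT2A, which makes S-adenosylmethionine, rose by 1.496 ± 0.13 (adjusted p = 2.73e-06). SAT1, which acetylates spermidine and spermine, measured 12.85, 13.81 and 13.35 on day 0 and 12.38, 11.47 and 10.89 on day 1, so that its groups stood apart, and it fell by 1.76 ± 0.34 (adjusted p = 0.00155). ODC1, the entry enzyme of the pathway, measured 11.46, 11.64 and 11.40 on day 0 and 12.25, 12.72 and 12.48 on day 1. Its groups did not overlap, but the difference of 0.98 ± 0.19 (adjusted p = 0.00153) was under the minimum change. It passed without day 0 replicate 2 (1.06) and without day 1 replicate 1 (1.10).

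Nucleotide genes were called in 7 of 26 cases, 3 higher (11.5%) and 4 lower (15.4%). Their changes ran from -3.71 to 2.45, the lowest being that of a gene not named here. NME1, a kinase that makes nucleoside triphosphates, measured 8.82, 8.78 and 8.72 on day 0 and 10.92, 11.28 and 11.48 on day 1. It rose by 2.45 ± 0.25 (5.48-fold, adjusted p = 8.44e-06) with no overlap, and its neighbour in function NME2 rose by 1.30 ± 0.12. These 2 genes have closely similar sequences, and how far their probe sets tell them apart was not tested. CTPS1, the CTP synthase, rose by 1.43 ± 0.20 (adjusted p = 0.000116). PPAT, the first enzyme of purine synthesis, measured 9.20, 9.88 and 10.12 on day 0 and 9.18, 7.71 and 7.74 on day 1. Its replicate 1 of day 1 almost touched the day 0 values, and it fell by 1.52 ± 0.35 (adjusted p = 0.00547). Falls numbered 2 rather than 4 without day 0 replicate 3.

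Of 15 glycolytic genes 1 rose (6.67%) and 1 fell (6.67%), and both were forms of phosphofructokinase, the gate of the pathway. PFKP, the platelet form, measured 7.70, 7.38 and 7.48 on day 0 and 9.39, 9.01 and 9.33 on day 1, a rise of 1.73 ± 0.14 (adjusted p = 1.56e-06). PFKM, the muscle form, measured 8.45, 7.95 and 7.94 on day 0 and 6.96, 6.71 and 6.83 on day 1 and fell by 1.28 ± 0.18 (adjusted p = 0.000131). Neither overlapped between days. On day 7 the mean of PFKM was back at 8.48 while PFKP stood at 9.17. LDHA, which makes lactate, was 11.94, 11.47 and 11.13 on day 0 and 11.03, 10.93 and 11.05 on day 1 (change -0.51 ± 0.23, adjusted p = 0.131). HIF1A, the oxygen-regulated factor upstream of many of these genes, differed by 0.53 ± 0.21 (adjusted p = 0.0862). In the pentose phosphate pathway, which supplies ribose and NADPH, 2 of 5 genes were higher. RPIA, which makes ribose phosphate, measured 9.75, 10.67 and 10.56 on day 0 and 11.70, 12.003 and 11.52 on day 1 and rose by 1.42 ± 0.28 (adjusted p = 0.00163). PGD, an NADPH-yielding dehydrogenase, rose by 1.05 ± 0.18 but by only 0.92, 0.98 and 0.99 without day 0 replicate 1, day 1 replicate 1 and day 1 replicate 2. Its change was also under the minimum with a second quantile normalization (0.94) and with cyclic loess (0.83).

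The mitochondrial energy chain was nearly free of calls. Of 31 genes of the citric acid cycle and pyruvate entry none was called by limma, with 5 higher and 5 lower at an unadjusted p under 0.05 and changes from -0.92 to 0.82. Leaving out day 0 replicate 3 or day 1 replicate 1 gave 1 fall. Of 61 genes of the respiratory chain and ATP synthase 1 rose and 1 fell (1.64% each). The fall was COX7A1, the muscle and heart form of a cytochrome oxidase subunit, with 8.88, 8.99 and 8.75 on day 0 and 7.25, 6.55 and 6.37 on day 1 and a change of -2.15 ± 0.36 (adjusted p = 0.00054). Its day 1 arrays lay well below every day 0 array. The rise was that of ATP5J, a coupling subunit of ATP synthase, at 1.10 ± 0.18 (adjusted p = 0.000426), which was 0.97 without day 0 replicate 3. It was also under the minimum with a second quantile normalization (0.998) and with cyclic loess (0.88).

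Of 25 genes of fatty acid oxidation, which feeds that chain, 6 fell (24%) and 2 rose (8%). DECR1, which handles unsaturated fatty acids in mitochondria, measured 10.55, 10.86 and 10.84 on day 0 and 8.93, 8.62 and 8.06 on day 1. The groups stood far apart and the fall was 2.21 ± 0.23 (4.64-fold, adjusted p = 1.32e-05). ACADSB and ACADL, dehydrogenases of short branched and long chains, fell by 1.47 ± 0.13 and 1.31 ± 0.23, and ECI1, an isomerase for double bonds, fell by 1.25 ± 0.32. Both rises, CPT1A, the gate for entry of long chains (1.17 ± 0.20), and ECI2 (1.15 ± 0.22), missed the minimum without day 0 replicate 1, at 0.93 and 0.99. ECI2 also missed it without day 1 replicate 3 (0.98), and neither was called under cyclic loess.

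The list of fatty acid and lipid synthesis held 4 rises (11.8%) and 6 falls (17.6%) among 34 genes. PLIN2, the coat protein of lipid droplets, measured 8.18, 8.53 and 8.54 on day 0 and 11.99, 11.59 and 11.73 on day 1. The rise was 3.35 ± 0.28 (10.2-fold, adjusted p = 1.87e-06) with no overlap, and the mean was 8.81 on day 7, near that of fresh cells. AGPAT2, which makes phosphatidic acid for triglycerides and membranes, measured 10.80, 11.57 and 10.21 on day 0 and 7.46, 7.42 and 7.19 on day 1 and fell by 3.50 ± 0.25 (11.3-fold, adjusted p = 5.2e-07). The long-chain acyl-CoA synthetases, which activate fatty acids, moved apart. ACSL4, the form that prefers arachidonic acid, rose by 1.64 ± 0.14 and ACSL1 by 1.46 ± 0.16 from near the background, whereas ACSL6 fell from 10.05, 10.17 and 9.93 to 7.64, 6.03 and 4.97, by 3.84 ± 0.47. The day 1 arrays of ACSL6 spread widely but all lay below day 0.

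Redox enzymes were called in 10 of 41 cases, 4 higher (9.76%) and 6 lower (14.6%). MGST1, a membrane glutathione transferase, measured 13.23, 13.91 and 13.24 on day 0 and 12.21, 10.81 and 8.55 on day 1. Replicate 3 was lowest on day 1 and the values of that day spread widely, with a fall of 2.93 ± 0.69 (adjusted p = 0.00612). GCLC, the catalytic subunit of the first step of glutathione synthesis, measured 12.09, 12.63 and 12.10 on day 0 and 10.71, 10.45 and 9.86 on day 1. It fell by 1.93 ± 0.22 (adjusted p = 2.18e-05). GCLM, its partner, fell by 1.26 ± 0.33, but its adjusted p was 0.0559 without day 0 replicate 1. MSRB2, a mitochondrial methionine sulfoxide reductase that is not counted in this list, was among the 30 largest falls of all genes at 3.49 ± 0.23 (11.2-fold, adjusted p = 2.79e-07). GPX1, the main cytosolic glutathione peroxidase, measured 9.24, 9.001 and 8.39 on day 0 and 11.40, 11.03 and 10.98 on day 1. It rose by 2.26 ± 0.22 (4.78-fold, adjusted p = 5.42e-06) and had no overlap. SOD3, the extracellular superoxide dismutase, measured 7.98, 7.64 and 8.22 on day 0 and 12.49, 10.06 and 10.79 on day 1, with its highest value in replicate 1, and rose by 3.17 ± 0.50 (adjusted p = 0.000338). GLRX, a glutaredoxin of the cytosol, is not counted in this list either. It went from 4.13, 4.13 and 4.55, within the lowest 25%, to 8.45, 8.26 and 9.31, so that its rise of 4.41 ± 0.48 is a lower bound (adjusted p = 1.7e-05).

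Of 32 enzymes that build sugar chains 4 rose (12.5%), 7 fell (21.9%) and 21 were not called. Their changes ran from -4.11 to 1.78, the lowest being that of a gene not named here. Falls numbered 4 without day 0 replicate 2 and 4 without day 1 replicate 3. ST3GAL4, a sialyltransferase, measured 12.65, 12.90 and 12.55 on day 0 and 10.02, 9.81 and 9.77 on day 1 and fell by 2.83 ± 0.18 (7.11-fold, adjusted p = 2.08e-07). ST3GAL1, a sialyltransferase with another acceptor, measured 9.89, 9.81 and 8.93 on day 0 and 10.93, 11.36 and 11.31 on day 1 and rose by 1.66 ± 0.32 (adjusted p = 0.00155). Neither gene overlapped between days. Of the galactosyltransferases, B4GALT1 fell by 1.72 ± 0.30 and B4GALT5 rose by 1.78 ± 0.23. FUT8, which adds core fucose, rose by 1.39 ± 0.26. Of 17 genes of heme and iron handling 1 rose and 1 fell (5.88% each). SLC11A2, an importer of ferrous iron, rose by 1.05 ± 0.20, but by less than the minimum without day 0 replicate 1 (0.85) and without replicate 2 or 3 of day 1 (0.95 and 0.98). ALAS1, the first enzyme of heme synthesis, was chosen after its values were seen and fell by 1.31 ± 0.38 with overlap. Its adjusted p in limma was 0.0212, and it rose above 0.05 when any array but day 0 replicate 3 was left out (0.0503 to 0.0926). None of 6 genes of sphingolipid metabolism was called by limma, and 1 was higher and 1 lower at an unadjusted p under 0.05.

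**Figure D3:**
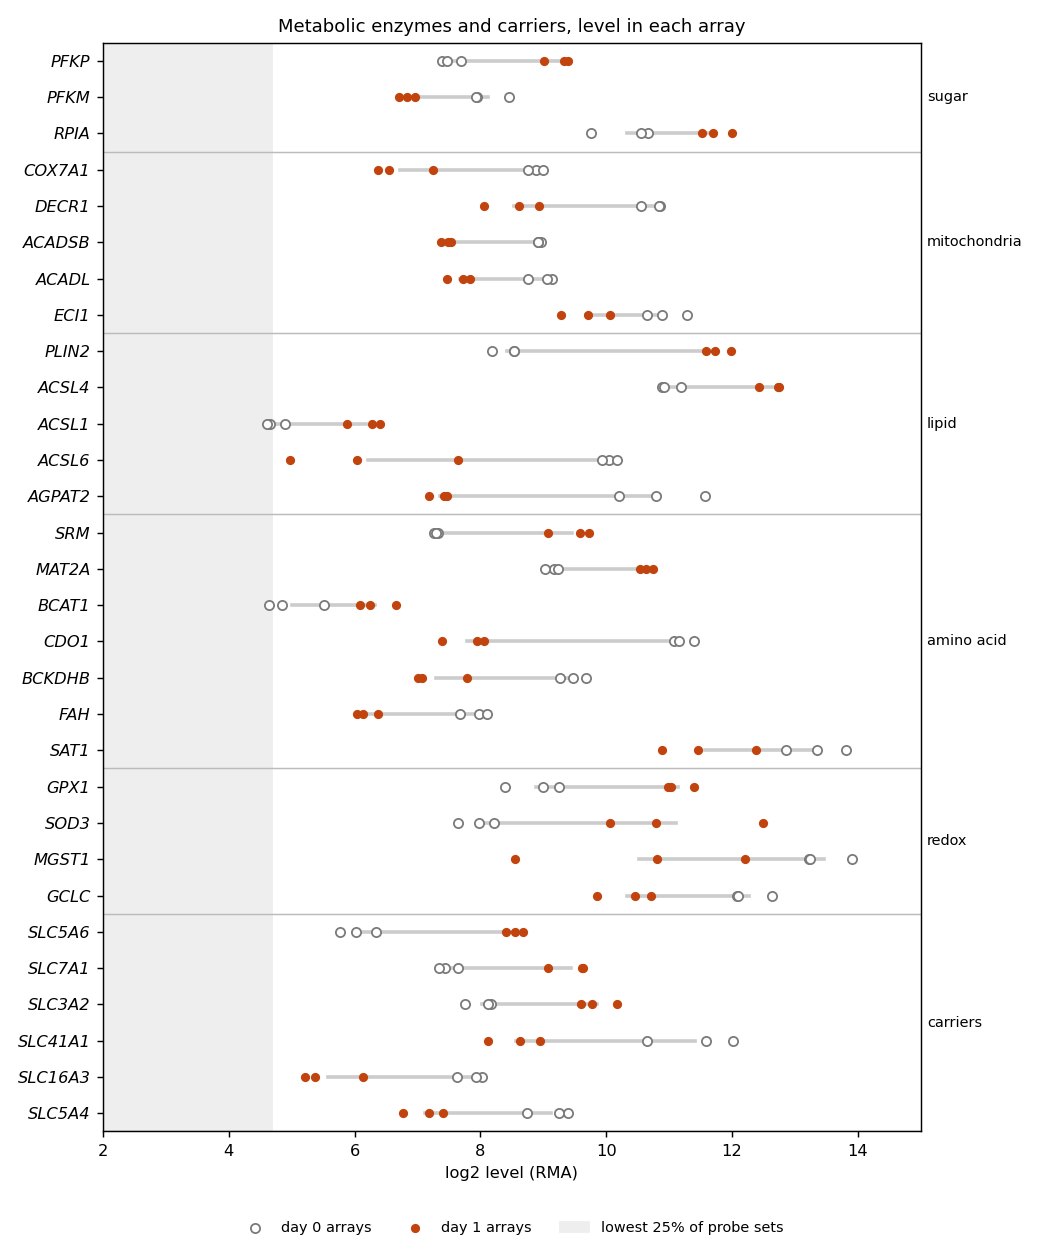
Log2 level of 30 metabolic enzymes and carriers in each array of day 0 (open points) and day 1 (filled points), with grey bars joining the day means and grey shading over the lowest 25% of probe sets. The genes were named for their calls and lack of overlap; CDO1 and SLC5A6 stand well apart between days, while MGST1 and ACSL6 spread widely on day 1.

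Solute carriers, the membrane proteins that move nutrients and ions, were called at the background share, 9 higher (9%) and 7 lower (7%) of 100, with 11 lower when only replicates 2 and 3 were used. Among 16 amino acid carriers 3 rose and 1 fell. SLC7A1, which takes up arginine, lysine and ornithine, measured 7.44, 7.64 and 7.34 on day 0 and 9.08, 9.62 and 9.63 on day 1 and rose by 1.97 ± 0.18 (3.91-fold, adjusted p = 3.99e-06). SLC3A2, the heavy chain that brings several amino acid carriers to the surface, measured 8.17, 7.76 and 8.12 on day 0 and 10.18, 9.61 and 9.77 on day 1 and rose by 1.83 ± 0.19 (adjusted p = 1.29e-05). Both stood apart between days on every array. SLC5A6, which takes up biotin and pantothenate, measured 5.76, 6.02 and 6.34 on day 0 and 8.41, 8.55 and 8.69 on day 1. It had the largest rise of the 100 carriers, 2.51 ± 0.17 (5.68-fold, adjusted p = 3.32e-07). Of 8 genes with names of the glucose carrier family, SLC2A1 rose, with 7.20, 7.08 and 7.06 on day 0 and 7.72, 8.44 and 8.94 on day 1. Its change of 1.25 ± 0.25 (adjusted p = 0.00189) was 0.96 without day 1 replicate 3, under the minimum. SLC2A3, the other widespread glucose carrier of growing cells, differed by 0.57 ± 0.21 (adjusted p = 0.0671).

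The largest fall of the carriers was that of SLC41A1, a magnesium carrier, with 12.02, 11.59 and 10.66 on day 0 and 8.95, 8.64 and 8.12 on day 1. It fell by 2.86 ± 0.31 (7.24-fold, adjusted p = 1.54e-05), and all of its day 1 values were lower. SLC16A3, the lactate exporter MCT4, measured 8.03, 7.93 and 7.63 on day 0 and 6.13, 5.37 and 5.20 on day 1 and fell by 2.29 ± 0.35 (adjusted p = 0.000267). By day 7 its mean was 9.01, above all 3 values of day 0. SLC5A4, a member of the sodium-glucose carrier family, fell by 2.01 ± 0.22 (adjusted p = 1.47e-05). In the mitochondrial carrier family 3 of 26 rose (11.5%) and 1 fell (3.85%). The ADP/ATP carrier SLC25A4, the muscle form, measured 10.94, 10.74 and 9.54 on day 0 and 8.93, 8.83 and 8.68 on day 1 and fell by 1.59 ± 0.30. SLC25A24, which exchanges ATP and magnesium for phosphate, measured 9.56, 9.81 and 9.39 on day 0 and 11.24, 11.47 and 11.41 on day 1 and rose by 1.79 ± 0.14 (adjusted p = 1.19e-06). Neither overlapped between days. SLC25A33, a pyrimidine nucleotide carrier, rose by 1.40 ± 0.19.

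Water and ion paths held few calls. None of 16 genes of the vacuolar proton pump was called by limma under the settings that kept the minimum change, and 5 were higher and 1 lower at an unadjusted p under 0.05. Of 28 pumps 2 rose (7.14%) and 1 fell (3.57%). ABCC6, an ABC transporter tied to ATP release, rose by 2.58 ± 0.56, and ATP1B1, the beta subunit of the sodium pump, by 1.40 ± 0.34, though by only 0.92 without day 0 replicate 1. ABCB6, a porphyrin transporter, fell by 1.28 ± 0.18. Of 45 ion channel genes 3 rose (6.67%) and 1 fell (2.22%). CLIC2, of the intracellular chloride channel family, measured 4.09, 6.13 and 5.83 on day 0 and 9.20, 9.15 and 8.18 on day 1. Replicate 1 of day 0 lay within the lowest 25%, the rise was 3.50 ± 0.59 (adjusted p = 0.00054), and by day 7 the mean was 3.47. CACNB4, a beta subunit of voltage-gated calcium channels, measured 7.92, 7.69 and 8.33 on day 0 and 5.56, 5.83 and 5.81 on day 1 and fell by 2.24 ± 0.20 (adjusted p = 3.29e-06). AQP1, the water channel, measured 5.52, 5.82 and 6.25 on day 0 and 7.48, 8.29 and 8.56 on day 1 and rose by 2.24 ± 0.31 (adjusted p = 0.000119), though its other probe set differed by 0.32 and was not called. AQP11, an intracellular relative, fell by 1.81 ± 0.29. GJA1, connexin 43, which couples granulosa cells through gap junctions, stood at 13.10, 13.77 and 13.51 on day 0 and 13.57, 13.61 and 13.20 on day 1, with overlap. Of 120 genes of vesicle traffic 12 rose (10%) and 4 fell (3.33%), but rises numbered 5 under a second quantile normalization, 6 under cyclic loess and 7 with replicates 2 and 3 only. STX11, a fusion protein of late endosomes, rose by 1.86 ± 0.28, ARF6, a small GTPase of membrane recycling at the cell surface, by 1.31 ± 0.21, and SEC24D, a coat protein of export from the endoplasmic reticulum, by 1.28 ± 0.22.

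Immediate early genes, which answer a stimulus within minutes, held 12 rises (35.3%) and 4 falls (11.8%) among 34, and 18 were not called. Falls numbered 8 with replicates 2 and 3 only. FOS, JUN and DUSP1 were high in fresh cells. FOS, a part of the AP-1 factor, measured 12.23, 13.57 and 13.08 on day 0 and 11.28, 10.11 and 9.90 on day 1. Its groups stood apart, with a fall of 2.54 ± 0.38 (5.8-fold, adjusted p = 0.000225). JUN, its partner, measured 12.14, 13.62 and 13.18 on day 0 and 11.50, 11.29 and 11.26 on day 1 and fell by 1.63 ± 0.28 (adjusted p = 0.000635). DUSP1, a phosphatase that shuts off MAP kinases and is induced with them, measured 9.99, 11.12 and 10.80 on day 0 and 8.99, 8.87 and 9.02 on day 1 and fell by 1.68 ± 0.31 (adjusted p = 0.00108). On each of these genes replicate 1 was the lowest array of day 0. EGR1, another early factor, measured 10.84, 10.93 and 11.38 on day 0 and 12.37, 10.95 and 10.83 on day 1, with overlap, and its difference of 0.33 ± 0.41 (adjusted p = 0.65) was -0.16 without day 1 replicate 1.

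KLF9, KLF10 and HES1 were among the 12 rises of the list, whose highest change was 5.39, of a gene not named here. KLF9, a glucocorticoid- and progestin-responsive factor, measured 3.07, 3.81 and 3.62 on day 0 and 7.87, 7.90 and 7.69 on day 1. All day 0 values lay in the lowest 25%, so that its rise of 4.32 ± 0.45 is a lower bound (adjusted p = 1.22e-05). A second probe set of KLF9 stood at 4.67 on day 0 and 4.70 on day 1 and was not called. KLF10, which TGF-beta induces, measured 8.20, 9.16 and 8.03 on day 0 and 11.86, 11.76 and 11.34 on day 1 and rose by 3.19 ± 0.28 (9.13-fold, adjusted p = 2.45e-06). HES1, a repressor downstream of Notch, rose by 1.61 ± 0.25, and GADD45G, a stress gene, fell by 1.67 ± 0.35 (adjusted p = 0.000275 and 0.00269).

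Kinase and G protein pathways were called close to the background. In the MAP kinase list 3 of 29 rose (10.3%) and 2 fell (6.9%), with 1 rise without day 0 replicate 1 and 1 without day 1 replicate 3. DUSP6, a phosphatase specific for ERK, measured 6.76, 7.48 and 7.30 on day 0 and 9.77, 8.75 and 8.46 on day 1 and rose by 1.82 ± 0.37 (adjusted p = 0.00234). It thus stood opposite to DUSP1, with replicate 1 highest on day 1. MAP2K6, a kinase that activates p38, measured 6.54, 6.70 and 7.03 on day 0 and 4.82, 4.56 and 4.97 on day 1 and fell by 1.98 ± 0.18 (adjusted p = 3.45e-06). In the cAMP and G protein list, the route of gonadotropin action, 6 of 64 rose (9.38%) and 2 fell (3.12%), with 4 falls without day 0 replicate 1 and 4 without day 1 replicate 1. AKAP7, an anchor of protein kinase A, measured 11.68, 11.70 and 11.22 on day 0 and 10.12, 8.53 and 7.37 on day 1. Its day 1 arrays spread widely, all below day 0, and it fell by 2.86 ± 0.52 (adjusted p = 0.00106). GNAI1, an inhibitory G protein subunit that lowers cAMP, measured 8.12, 8.49 and 8.84 on day 0 and 10.89, 10.59 and 10.88 on day 1 and rose by 2.30 ± 0.17 (4.93-fold, adjusted p = 7.66e-07). GNG12 and GNG2, G protein gamma subunits, rose by 2.66 ± 0.35 and 2.48 ± 0.27. None of these 3 subunits overlapped between days. The changes of this list ran from -2.86 to 6.19, the highest being that of a gene not named here.

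In the PI3K, AKT and mTOR list 2 of 28 rose (7.14%) and 3 fell (10.7%), and the 3 falls were of genes known to restrain growth signaling. FOXO1, a factor that AKT keeps out of the nucleus and that is abundant in granulosa cells, measured 12.82, 13.04 and 12.87 on day 0 and 12.11, 11.30 and 10.30 on day 1 and fell by 1.68 ± 0.34 (adjusted p = 0.00201). DDIT4L and SESN1, inhibitors of mTOR signaling, fell by 2.41 ± 0.22 and 1.36 ± 0.33 (adjusted p = 4.37e-06 and 0.00674). GRB10, an adaptor that dampens insulin signaling, went the other way and rose by 1.79 ± 0.19 (adjusted p = 1.47e-05). The changes of this list ran from -2.41 to 5.39, the highest being that of a gene not named here.

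Inflammatory genes rose in 9 of 42 cases (21.4%) and fell in 1 (2.38%). The part of other cell types in these rises was not tested. CCL2, a chemokine for monocytes, measured 5.69, 4.27 and 4.38 on day 0 and 9.34, 8.16 and 9.36 on day 1 and rose by 4.17 ± 0.58 (adjusted p = 0.00012). IL18, a cytokine of the interleukin 1 family, measured 4.98, 4.08 and 4.00 on day 0 and 7.76, 7.00 and 8.85 on day 1 and rose by 3.52 ± 0.47 (adjusted p = 9.29e-05). Replicates 2 and 3 of both genes were within the lowest 25% on day 0, so both rises may be understated. The prostaglandin enzymes moved apart. PTGS1, the constitutive cyclooxygenase, measured 5.34, 4.71 and 6.26 on day 0 and 8.01, 7.98 and 7.59 on day 1 and rose by 2.42 ± 0.35 (adjusted p = 0.000163), while PTGES, the prostaglandin E synthase downstream of it, measured 12.84, 12.84 and 12.03 on day 0 and 11.02, 10.79 and 10.29 on day 1 and fell by 1.87 ± 0.26 (adjusted p = 0.000109). In the Wnt and Notch list 3 of 21 rose (14.3%) and 4 fell (19%). DKK3, a secreted member of the Dickkopf family, measured 10.57, 10.26 and 10.87 on day 0 and 13.83, 13.36 and 13.11 on day 1 and rose by 2.87 ± 0.20 (7.31-fold, adjusted p = 3.52e-07). TCF7L1, a mostly repressive partner of beta-catenin, rose by 2.16 ± 0.34, and FZD5, a Wnt receptor, measured 12.24, 12.62 and 11.42 on day 0 and 10.35, 10.99 and 10.71 on day 1 and fell by 1.41 ± 0.34 (adjusted p = 0.00765). Of 8 clock genes 2 were called higher (25%). The count was 1 when day 0 replicate 1, day 0 replicate 2 or replicate 1 of day 1 was left out, and none passed under cyclic loess. PER1 and DBP, which clock factors drive, differed by -0.38 ± 0.19 and -0.35 ± 0.18 (adjusted p = 0.181 and 0.207).

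Of 42 growth factors and other secreted ligands 5 rose (11.9%) and 4 fell (9.52%), close to the background and with a median change of 0.03, with 3 rises without day 0 replicate 1, without day 1 replicate 1 and with replicates 2 and 3 only. Their changes ran from -2.64 to 3.30, the lowest being that of a gene not named here. BDNF, a neurotrophin also made by granulosa cells, measured 5.08, 5.04 and 4.96 on day 0 and 8.54, 8.20 and 8.25 on day 1. The rise was 3.30 ± 0.24 (9.87-fold, adjusted p = 5.33e-07), with the replicates of each day close together. The angiopoietins, ligands of the vessel receptor TIE2, moved in opposite directions. ANGPT1, its agonist, measured 8.63, 9.36 and 9.21 on day 0 and 7.68, 7.34 and 6.73 on day 1 and fell by 1.81 ± 0.40 (adjusted p = 0.00416). ANGPT2, its context-dependent antagonist, measured 5.74, 5.57 and 5.74 on day 0 and 9.46, 8.70 and 7.92 on day 1 and rose by 3.01 ± 0.65 (adjusted p = 0.0034). Its day 7 mean was 4.88.

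In the TGF-beta list, 7 of 24 genes rose (29.2%) and 4 fell (16.7%). This list leaves out 5 family members held among the granulosa markers, of which AMH, INHA, INHBB and FST fell and INHBA was not called. FST, follistatin, which binds activin, fell by 2.16 ± 0.21, and INHA, the alpha subunit of inhibin, fell by 1.31 ± 0.35 but was not called without day 1 replicate 3 (adjusted p = 0.0718 in limma). With these 5, added after values were seen, 7 of 29 rose (24.1%) and 8 fell (27.6%). The 4 falls of the list itself became 2 when replicate 1 or 3 of day 0 or replicate 2 or 3 of day 1 was left out. TGFB1, the founding ligand, measured 3.98, 4.44 and 5.14 on day 0 and 8.84, 7.54 and 8.30 on day 1. Replicates 1 and 2 of day 0 lay in the lowest 25%, so its rise of 3.70 ± 0.35 (adjusted p = 5.22e-06) may be understated. ACVR1, a type I receptor of bone morphogenetic proteins, measured 6.92, 7.51 and 7.19 on day 0 and 8.84, 8.73 and 8.99 on day 1 and rose by 1.64 ± 0.17 (adjusted p = 9.46e-06). SMAD3, a transducer of TGF-beta and activin, rose by 1.59 ± 0.31, with a day 7 mean of 6.91 against 6.78 on day 0. AMHR2, the receptor of AMH, fell by 1.21 ± 0.31 (adjusted p = 0.0101). GDF9 of the oocyte, given above, was another of the falls.

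Receptors for cytokines and death ligands rose in 8 of 27 cases (29.6%) and fell in 1 (3.7%). Of the 7 genes of the tumor necrosis factor receptor family 5 rose, with a family median of 1.99. TNFRSF12A, the receptor of TWEAK, measured 8.02, 7.56 and 7.71 on day 0 and 12.13, 12.21 and 12.18 on day 1. The day 1 arrays were nearly equal and the rise was 4.41 ± 0.25 (21.3-fold, adjusted p = 9.95e-08). TNFRSF21, death receptor 6, rose by 2.13 ± 0.27 (adjusted p = 5.41e-05). TNFRSF1A and TNFRSF1B, both receptors of tumor necrosis factor itself, were chosen after their values were seen. TNFRSF1A measured 7.86, 7.63 and 7.97 on day 0 and 10.04, 9.61 and 9.81 on day 1 and rose by 1.99 ± 0.19, and TNFRSF1B measured 7.14, 7.45 and 7.85 on day 0 and 9.48, 9.51 and 9.48 on day 1 and rose by 2.01 ± 0.17 (adjusted p = 5e-06 and 2.46e-06). FAS, also chosen after its values were seen, measured 4.06, 4.27 and 4.36 on day 0 and 6.11, 4.86 and 4.87 on day 1. Its change of 1.05 ± 0.35 was 0.63 without day 1 replicate 1, and it was not called without any single array of day 0 either (adjusted p = 0.0705 to 0.109).

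Interleukin receptors were called in 3 of 12 cases. IL1R1, the signaling receptor of interleukin 1, measured 5.17, 4.75 and 5.37 on day 0 and 9.62, 8.09 and 8.02 on day 1 and rose by 3.47 ± 0.36 (11.1-fold, adjusted p = 1.24e-05). Its other probe set lay in the lowest 25% on both days, with a difference of 0.03. IL4R, the receptor chain for interleukins 4 and 13, measured 6.60, 7.00 and 6.90 on day 0 and 9.31, 9.44 and 9.65 on day 1 and rose by 2.63 ± 0.20 (adjusted p = 6.82e-07). IL11RA, the receptor of interleukin 11, measured 8.22, 8.31 and 8.41 on day 0 and 6.63, 6.71 and 6.59 on day 1 and fell by 1.67 ± 0.14 (adjusted p = 1.91e-06). For all 3 genes the days stood apart on every array.

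G protein-coupled receptors were rarely called, 2 higher (2.56%) and 5 lower (6.41%) of 78, and 27 of the 78 lay in the lowest 25% on day 0. With replicates 2 and 3 only, 8 were lower. CXCR4, the receptor of the chemokine CXCL12, measured 5.33, 6.22 and 5.97 on day 0 and 10.49, 8.27 and 9.21 on day 1. Replicate 1 was lowest on day 0 and highest on day 1, and the rise was 3.49 ± 0.59 (adjusted p = 0.000558). F2R, the thrombin receptor PAR1, measured 8.79, 9.60 and 8.76 on day 0 and 10.66, 11.48 and 11.03 on day 1 and rose by 2.01 ± 0.24 (adjusted p = 4.08e-05). Both receptors of endothelin fell. EDNRA measured 9.11, 8.35 and 8.51 on day 0 and 6.41, 6.32 and 5.45 on day 1 and fell by 2.60 ± 0.32 (6.06-fold, adjusted p = 4.44e-05). EDNRB measured 7.25, 7.80 and 7.41 on day 0 and 6.02, 5.96 and 5.97 on day 1 and fell by 1.499 ± 0.16 (adjusted p = 1.3e-05). Neither overlapped between days. FSHR, the receptor of follicle-stimulating hormone, fell by 1.33 ± 0.42 (adjusted p = 0.0316), but the adjusted p was 0.0503, 0.131, 0.124 and 0.107 without day 0 replicate 1, day 0 replicate 3, day 1 replicate 2 and day 1 replicate 3.

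Receptor tyrosine kinases and phosphatases held 3 rises (15%) and no fall in limma among 20 genes, 1 being lower at an unadjusted p under 0.05. A fall was called when replicate 3 of day 0 or replicate 2 or 3 of day 1 was left out. FGFR2, a receptor of fibroblast growth factors, measured 6.77, 5.997 and 5.75 on day 0 and 7.97, 7.63 and 8.53 on day 1 and rose by 1.87 ± 0.32 (adjusted p = 0.00068). PLXNA2, a plexin that binds semaphorins, measured 7.06, 6.82 and 7.16 on day 0 and 8.31, 8.88 and 9.02 on day 1 and rose by 1.72 ± 0.23 (adjusted p = 8.81e-05). The third, PDGFRB, a receptor of platelet-derived growth factor and a stroma marker, rose by 3.58 ± 0.36 on 1 probe set while another probe set stood at 7.41 on day 0 and 7.39 on day 1. EGFR, through which gonadotropin-induced ligands act in the follicle, differed by 0.69 ± 0.19 (adjusted p = 0.0139), under the minimum change. IGF1R, the receptor of insulin-like growth factor 1, ranged from 8.37 to 9.48 on day 0 and from 8.13 to 9.91 on day 1. KIT, the receptor of the ligand that granulosa cells offer to the oocyte, ranged from 9.90 to 11.27 and from 9.02 to 10.99. Replicate 1 was the highest array for both genes on both days.

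Nuclear receptors were called in 5 of 32 cases, 2 higher (6.25%) and 3 lower (9.38%), with 1 rise and 5 falls without day 1 replicate 1. NR2F1, an orphan receptor also called COUP-TFI, measured 6.29, 6.51 and 6.95 on day 0 and 8.56, 8.18 and 8.13 on day 1 and rose by 1.71 ± 0.39 (adjusted p = 0.00484). NCOA7, a coactivator counted in this list, measured 8.19, 8.92 and 8.48 on day 0 and 7.37, 7.24 and 7.16 on day 1 and fell by 1.27 ± 0.20 (adjusted p = 0.000293). The other falls of the list were those of nuclear receptors not named here. ESR1, an estrogen receptor, measured 7.44, 5.90 and 6.06 on day 0 and 6.81, 4.93 and 4.79 on day 1, with overlap. Its difference was -0.96 ± 0.50 (adjusted p = 0.201), and without day 1 replicate 1 it was -1.61 and passed (adjusted p = 0.0111). ESR2, the estrogen receptor named as a granulosa marker, stood at 4.26 to 4.51 and 4.29 to 4.41, within the lowest 25% on both days. PGR, the progesterone receptor, differed by 0.67 ± 0.26 (adjusted p = 0.0778).

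Receptors of lipoproteins, which bring cholesterol to steroid-making cells, were among the falls of the last list. The list of endocytic, scavenger and adhesion receptors held 6 rises (12%) and 6 falls (12%) among 50. SCARB1, which takes up cholesterol ester from high-density lipoprotein, measured 10.88, 10.36 and 10.48 on day 0 and 7.97, 7.96 and 8.20 on day 1 and fell by 2.53 ± 0.16 (5.79-fold, adjusted p = 2.01e-07). LRP8, the apolipoprotein E receptor 2, measured 12.92, 12.93 and 12.11 on day 0 and 10.37, 10.18 and 9.35 on day 1 and fell by 2.69 ± 0.27 (adjusted p = 7.62e-06). VLDLR, its close relative, measured 10.54, 10.22 and 9.91 on day 0 and 8.85, 8.61 and 7.73 on day 1 and fell by 1.83 ± 0.28 (adjusted p = 0.000239), with a day 7 mean of 10.68. Another probe set of VLDLR differed by -0.65 and was not called. All 3 genes were lower on every day 1 array. CD55, which shields cells from complement, fell by 1.84 ± 0.30 (adjusted p = 0.000484). NCAM1, the neural cell adhesion molecule, measured 6.87, 7.20 and 7.45 on day 0 and 9.31, 9.86 and 9.99 on day 1 and rose by 2.55 ± 0.27 (5.85-fold, adjusted p = 1.29e-05). TSPAN12, a tetraspanin of the Norrin receptor complex, measured 4.78, 5.76 and 4.24 on day 0 and 7.88, 8.17 and 8.34 on day 1 and rose by 3.20 ± 0.43 (adjusted p = 9.61e-05), and its replicate 3 of day 0 lay in the lowest 25%.

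**Figure D4:**
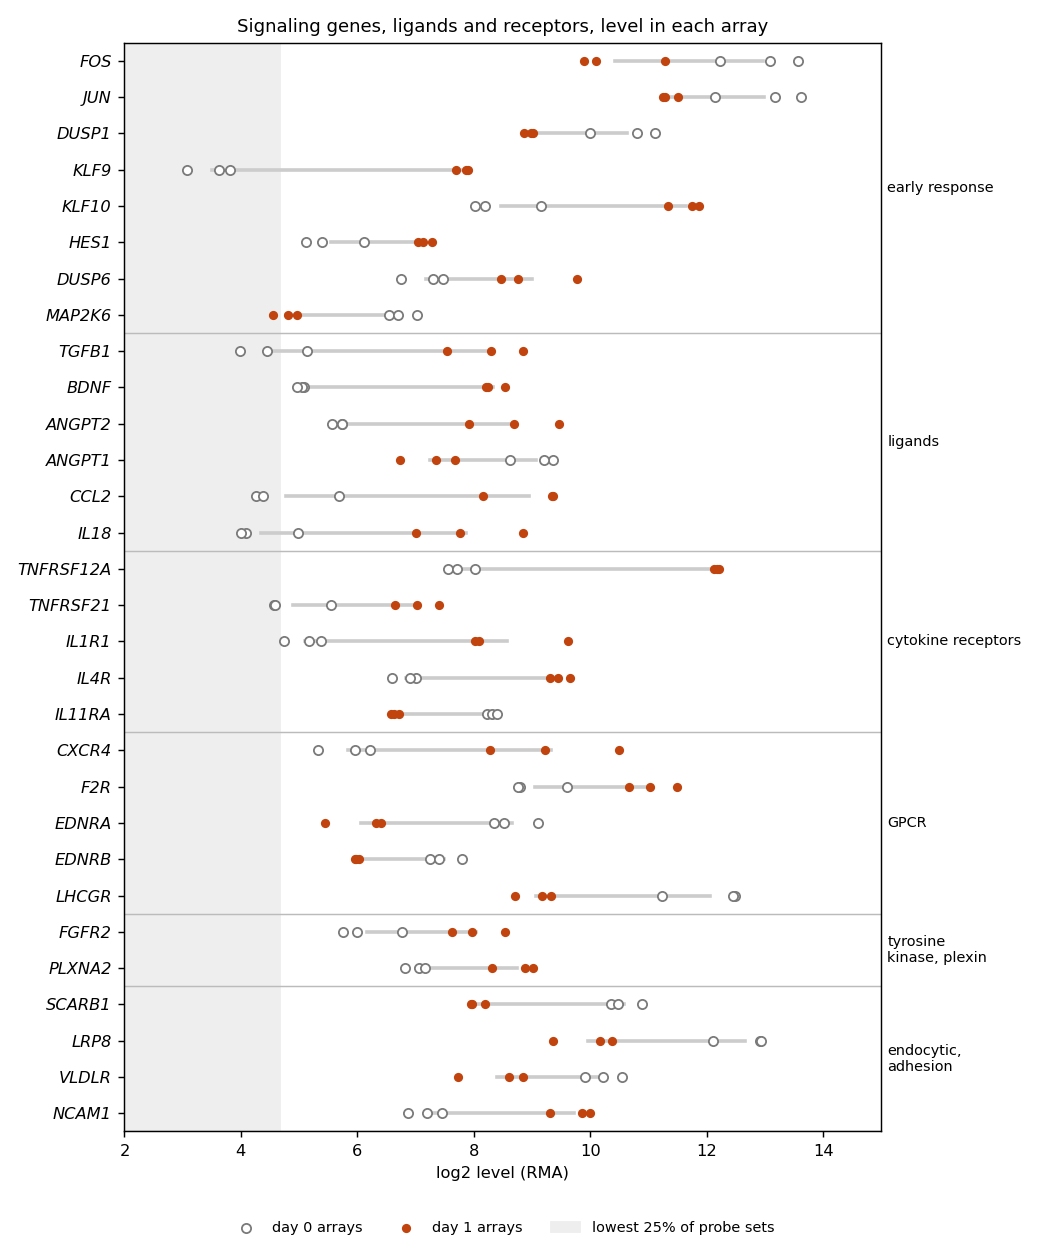
Log2 level of 30 signaling genes, ligands and receptors in each array of day 0 (open points) and day 1 (filled points), with grey bars joining the day means and grey shading over the lowest 25% of probe sets. The genes were named for their calls and lack of overlap; TNFRSF12A has its 3 day 1 arrays almost on top of each other, and KLF9, TGFB1, CCL2 and IL18 start within or at the lowest 25%.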

How the data were processed

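Total RNA of pig granulosa cells was labelled with biotin and measured on Affymetrix porcine arrays, per the labels. In the deposited table each probe set has 1 log2 value per array, made by the authors with RMA per the submitters' processing notes, whose version the sources used here do not give. Of 24123 probe sets, 124 controls served only as quality measures and 23999 were tested. Genes were named from the platform annotation: 10069 probe sets had 1 symbol, 198 several and 13732 none. A gene with several probe sets is represented by the one with the highest mean over all 15 arrays. Symbols are those of the annotation and can be old.

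A model with 1 mean per day was fitted to the 15 arrays of the series (limma 3.58.1, lmFit and eBayes, under R 4.3.3), and day 1 was contrasted with day 0. Calls needed a Benjamini-Hochberg adjusted p under 0.05 and a log2 change of at least 1. The fit was tested on simulated data. Of 49 lists with 1610 genes, 41 are plotted, 7 hold cell type markers and 1 is not reported here. Genes were named by a rule: per list the 4 largest rises and falls among called genes without overlap, the 30 largest of each over all genes, and 41 genes fixed by name, of which 33 were measured. From these the text takes those that describe a group. Subgroups within lists were formed after values were seen. The comparison, its lists and its genes were chosen with earlier results of these data known. No gene positions or sequences were used here. Alternatives covered normalization, dim probe sets, the variance model, the replicate block, the arrays in the fit, the minimum change, the probe set of a gene (for list medians) and single arrays left out.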

Additional observations from a re-analysis of the deposited data

How the results depend on the processing

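With no minimum change, 3274 probe sets were called higher and 2746 lower. Without single arrays, the counts ran from 1425 to 1582 higher and from 1271 to 1646 lower. With replicates 2 and 3 only, a choice made after seeing the data, they were 1522 and 1854. The replicate numbers were not treated as pairs, since the deviations of same-numbered arrays correlated at 0.21, 0.33 and 0.06, and with the replicate number as a block 1694 probe sets were higher and 1531 lower. The block changed the call of none of the 153 called genes named in the text.

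On the probe set used, 137 of those 153 genes stayed called in the same direction under the alternatives of normalization, dim probe sets, variance model, block, minimum change and arrays that could be fitted for them. Other probe sets were read for the 50 genes that have them, after seeing the data. For 22 genes every other probe set was called in the same direction, and for 28 at least 1 was not. For 24 of these 28 none was, and no other probe set was called in the opposite direction. The other probe sets of PDGFRB and ATP5J had the opposite sign (-0.02 and -0.09). Calls were lost for 6 under cyclic loess, 3 under a second quantile normalization, 3 with the 6 arrays alone, 8 with replicates 2 and 3 only and 3 to 11 without single arrays, and none changed direction. Among genes that were not called, the difference of RPLP0 turned to -0.10 and that of GJA1 to -0.28 under cyclic loess. Without single arrays GJA1 ran from -0.18 to 0.16 and EGR1 from -0.16 to 0.61, and with replicates 2 and 3 only they were -0.23 and -0.27, while CYP19A1 was 0.18. The cause was not tested. The 3 arrays of each day limit the precision, and levels within the lowest 25% of probe sets carry no order.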
